A study of Homo sapiens with 2 samples.

Results

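The RNAs described here are 7 short structural RNAs made by RNA polymerase III: the 7SL RNAs RN7SL1 and RN7SL2, the 7SK RNA RN7SK, the RNase P RNA RPPH1, the RNase MRP RNA RMRP, and the Y RNAs RNY1 and RNY3. They are 7 of the 25556 rows of the deposited gene table, taken by their symbols, and were chosen by their IP and input values in these same libraries, so that their levels are given as a description with no test. The libraries came from wild-type Huh-7 cells, an established human liver cancer line, with no treatment. One is an RNA immunoprecipitation (IP), in which an antibody pulls a protein out of a lysate and the co-purified RNA is sequenced; it used 90% of the lysate. The other is the input, which used 10% of it. The design text names an antibody against the splicing factor SRSF7, whereas the sample protocol gives poly(A) selection followed by an antibody to YTHDF2, an m6A reader, and the treatment label of the IP reads SPSF7. The libraries therefore go by their titles, IP and input. Products of 200 to 500 bp were selected for sequencing, per the design text, and its part in the values of RNY1 and RNY3, which are 113 and 102 bases long, was not tested. Each group is 1 library, so no difference has a replicate check.

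RNA polymerase III makes small, abundant non-coding RNAs that end at a run of T and carry no long poly(A) tail. Most act as the core of an RNA-protein particle. 7SL scaffolds the signal recognition particle, which brings ribosomes that translate secreted and membrane proteins to the endoplasmic reticulum, and 7SK holds the elongation factor P-TEFb in an inactive store in the nucleus. RNase P trims the leader of precursor tRNAs, RNase MRP works in the nucleolus on precursor ribosomal RNA, and Y RNAs bind the proteins RO60 and La.

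Summed over the 25556 rows, the IP held 5897293 reads and the input 2782045, the totals used for shares below. Reads in rows that share bases were counted in each row, so these totals exceed the number of distinct reads. The 3 rows that share bases with the 7 RNAs held 28051 of the IP and 229275 of the input reads. Intervals are 95% intervals and cover counting error only. Of genes with low counts of up to 20 reads, 77.3% had an even number in each library. Pairs were thus probably counted as 2 reads, and the true counting error would then be wider. All 12 hepatocyte markers were present, with 6152 RPKM in sum in the IP and 7288 in the input (RPKM is reads scaled to gene length and to the reads of the library). In the IP and the input, summed levels were 2.72 and 2.45 RPKM for fibroblast markers (4 of 5 listed), 2.70 and 3.99 RPKM for endothelial (3 of 4), 86.4 and 151 RPKM for immune (5 of 5) and 696 and 1056 RPKM for erythroid markers (5 of 5). The B cell marker MS4A1 was at 0 in the IP and the endothelial marker CDH5 at 0 in the input. The immune and erythroid sums were thus also lower in the IP; their part in the results below was not tested.

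All 7 RNAs were lower in the IP than in the input on the deposited scale, but by very different factors, from 1.67-fold for RMRP to 70.5-fold for RNY1. The RNY1 factor rests on 4 IP reads, and its interval (26.9 to 262) includes the 41.0-fold of RN7SL1. RNY3 had 0 IP reads and so no such factor. Together they took 0.620% of IP reads (exact binomial interval 0.614 to 0.627%) and 13.34% of input reads (13.30 to 13.38%), a 21.5-fold difference. On the scale of log2((IP + 1)/(input + 1)) of RPKM, 6 of the 7 were at least 2-fold lower, which RMRP was not. Of the 14057 genes whose mean over the IP and the input reached 1 RPKM, 8.25% were at least 2-fold lower. All 7 RNAs passed that filter, RNY3 through its input value alone. Nothing is read from this count, since the RNAs were chosen on the same contrast.

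The 7SL RNAs were the most abundant rows of the input, and the level of both was far lower in the IP. RN7SL2 (chromosome 14, 49862550 to 49862849, minus strand, 300 bases; genome build not given in the sources used here) had 7866 RPKM in the IP, against 198885 RPKM in the input. RN7SL1 (chromosome 14, 49586580 to 49586878, plus strand, 299 bases) had 4123 RPKM in the IP, against 168932 RPKM in the input. In reads, RN7SL2 had 13916 in the IP and 165992 in the input, and RN7SL1 had 7270 and 140523. RN7SL2 was 25.3-fold lower in the IP (interval 24.9 to 25.7) and RN7SL1 was 41.0-fold lower (40.02 to 41.96). In order of reads, RN7SL2 stood at position 35 in the IP and at position 1 in the input, and RN7SL1 at positions 92 and 3. Position 1 in the input was shared with AL627171.2, a row described below that counts the RN7SL2 reads again.

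The 2 main 7SL genes did not share the same ratio, although they are near-identical copies. RN7SL1 took 34.3% of the reads of the pair in the IP (exact binomial interval 33.7 to 34.96%) and 45.8% in the input (45.7 to 46.02%). The quotient of RN7SL1 to RN7SL2 was 1.62-fold lower in the IP (1.57 to 1.67). The rule that split reads between such copies was not given in the sources used here, so the value of each copy is uncertain. Their sum does not depend on how reads were split between these 2: 21186 IP and 306515 input reads, 30.7-fold lower in the IP.

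The other 7SL rows, most of them pseudogenes of the same RNA, followed the same direction. The 89 rows held 1288 IP and 6745 input reads, a ratio of 0.0901 (0.0848 to 0.0956). RN7SL3, another 7SL gene, had 474 RPKM in the IP and 5885 RPKM in the input, 12.4-fold lower. The pseudogene RN7SL4P had 151 RPKM in the IP and 1211 RPKM in the input, 8.04-fold lower. In all, 7 of these rows had at least 20 reads in both libraries together, and all 7 had a ratio below 0.5, from 0.0443 for RN7SL674P to 0.270 for RN7SL381P. Of the 13999 rows with that many reads, leaving out the 7 RNAs and rows sharing their bases, 8.07% had a ratio of at most 0.5, and of the 248 among them of at most 350 bases 27.0% did. No ratio among them was as low as that of RN7SL1 or RN7SL2, but the interval of RN7SL674P (0.0316 to 0.0606) included that of RN7SL2. Reads of one copy can be placed in another, so these rows are not independent of the main genes.

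7SK was the next most abundant of the 7. RN7SK (chromosome 6, 52995621 to 52995948, plus strand, 328 bases) had 6740 RPKM in the IP, against 65843 RPKM in the input. Its reads numbered 13037 in the IP and 60082 in the input, and its level was 9.77-fold lower in the IP (9.59 to 9.96). Because 7SL was lower by a larger factor, the order of RN7SK and RN7SL1 differed between the libraries: RN7SK was at 1.63 times the level of RN7SL1 in the IP and at 0.390 times in the input, per length. The 34 rows named as 7SK pseudogenes held 142 IP and 315 input reads, a ratio of 0.213 (0.173 to 0.260). All 5 of them with at least 20 reads were at least 2-fold lower in the IP, against 27.0% of short rows with that many reads, a share that counts these 5 too. The 5 included RN7SKP255 (15 IP and 78 input reads), RN7SKP79 (20 and 62) and RN7SKP203 (20 and 60). As with 7SL, reads of RN7SK can be placed in these rows, so they are not independent of it.

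**Figure D1:**
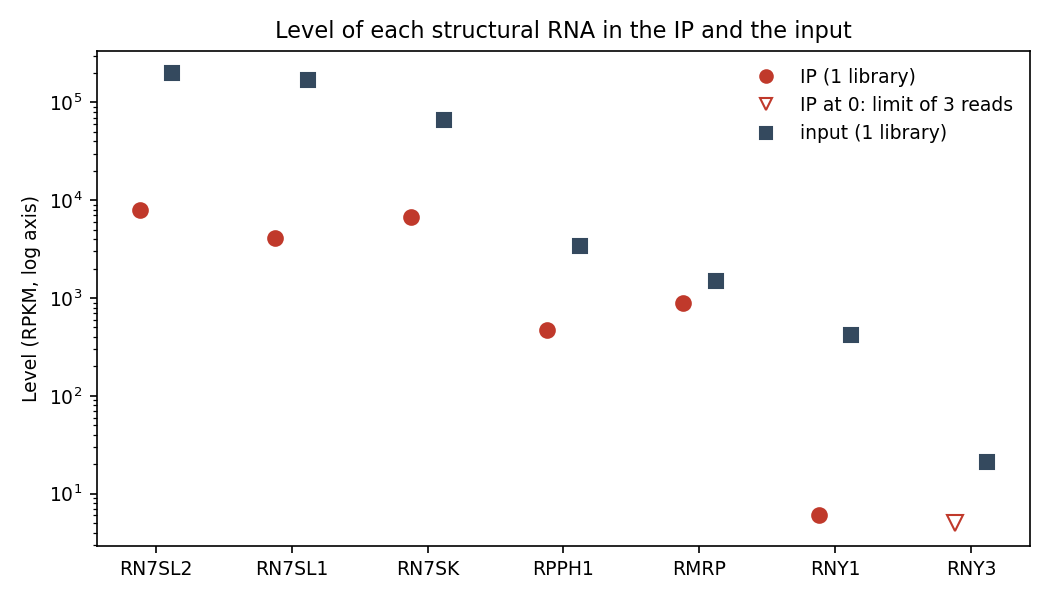
Level of each of the 7 RNAs, in RPKM on a log axis, with the IP library as red circles and the input library as dark squares; there are no error bars because each group is 1 library. RN7SL2 stands at 7866 in the IP and 198885 in the input, RMRP has the closest pair of points, and the open triangle marks the level that 3 reads would give for RNY3, which had 0 IP reads.

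RNase P and RNase MRP RNA, which are related in structure and share most of their proteins, had different ratios. RPPH1 (chromosome 14, 20343075 to 20343407, minus strand, 333 bases) had 473 RPKM in the IP, against 3389 RPKM in the input, from 929 and 3140 reads. It was 7.16-fold lower in the IP (6.66 to 7.72). RMRP (chromosome 9, 35657751 to 35658018, minus strand, 268 bases) had 898 RPKM in the IP, against 1497 RPKM in the input, from 1420 and 1116 reads. RMRP was 1.67-fold lower in the IP (1.54 to 1.80). The order of the pair was therefore opposite in the 2 libraries: RPPH1 was at 0.527 times the level of RMRP in the IP and at 2.26 times in the input. That quotient was 4.30-fold lower in the IP (3.86 to 4.79), a figure that does not depend on the scaling between the libraries.

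The Y RNAs had few reads. RNY1 (chromosome 7, 148987136 to 148987248, minus strand, 113 bases) had 6.002 RPKM in the IP, against 423 RPKM in the input. These values rest on 4 IP and 133 input reads, and RNY1 was 70.5-fold lower in the IP with a wide interval of 26.9 to 262. RNY3 (chromosome 7, 148983755 to 148983856, plus strand, 102 bases) had 0 IP and 6 input reads, which is 21.1 RPKM in the input. Set against a limit of 3 IP reads, which a count of 0 allows, RNY3 was at least 4.24-fold lower in the IP with the 6 input reads taken as exact, and the interval that covers counting error in both libraries began at 2.496-fold. Taking each 2 reads as 1 fragment, the interval of the RNY3 ratio reached 1.14, so that with independent fragments no difference was detectable for RNY3 at this depth. RNY4, another Y RNA, had 8 IP and 12 input reads, a ratio of 0.314 (0.112 to 0.837, with each read taken as independent). The interval of RNY4 on fragments would be wider and was not computed. The row Y_RNA, which pools many genomic copies, had 38 IP and 53 input reads, a ratio of 0.338 (0.217 to 0.523). Both ratios were higher than that of RNY1, whose interval ended at 0.0372.

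Ranked by level per length, RN7SL2, RN7SK and RN7SL1 stood among the 10 highest rows of both libraries, and the Y RNAs far lower in the IP. RN7SL2, RN7SL1, RN7SK, RPPH1, RMRP, RNY1 and RNY3 stood at positions 3, 6, 4, 79, 36, 5816 and 23535 of 25556 rows in the IP and at positions 1, 2, 3, 11, 20, 88 and 1951 in the input. The order in the IP was RN7SL2, RN7SK, RN7SL1, RMRP, RPPH1, RNY1 and RNY3. In the input it was RN7SL2, RN7SL1, RN7SK, RPPH1, RMRP, RNY1 and RNY3. With 1 library per group, no spread between samples can be set beside this order, and RNY1 and RNY3 in the IP rest on 4 and 0 reads.

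In 3 cases the same reads were counted again in a clone-named row on the same strand. AL162581.1 covers RN7SK with 3 more bases and had the same 13037 IP and 60082 input reads. AL627171.2 contains RN7SL2 within 2034 bases and had 13921 IP and 165992 input reads, so that its 1734 bases outside RN7SL2 held 5 IP and 0 input reads. AL355075.4 contains RPPH1 within 638 bases and had 1093 IP and 3201 input reads. Its 305 bases outside RPPH1 held 164 IP and 61 input reads, at 1.27 times the input level (0.940 to 1.73), whereas RPPH1 itself was at 0.140 times. Of those 305 bases, 104 are shared with PARP2 on the opposite strand. Whether counting used the strand was not given in the sources used here, so reads of PARP2 among them cannot be told apart. The 7 RNAs shared bases with 0 rows on the opposite strand.

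**Figure D2:**
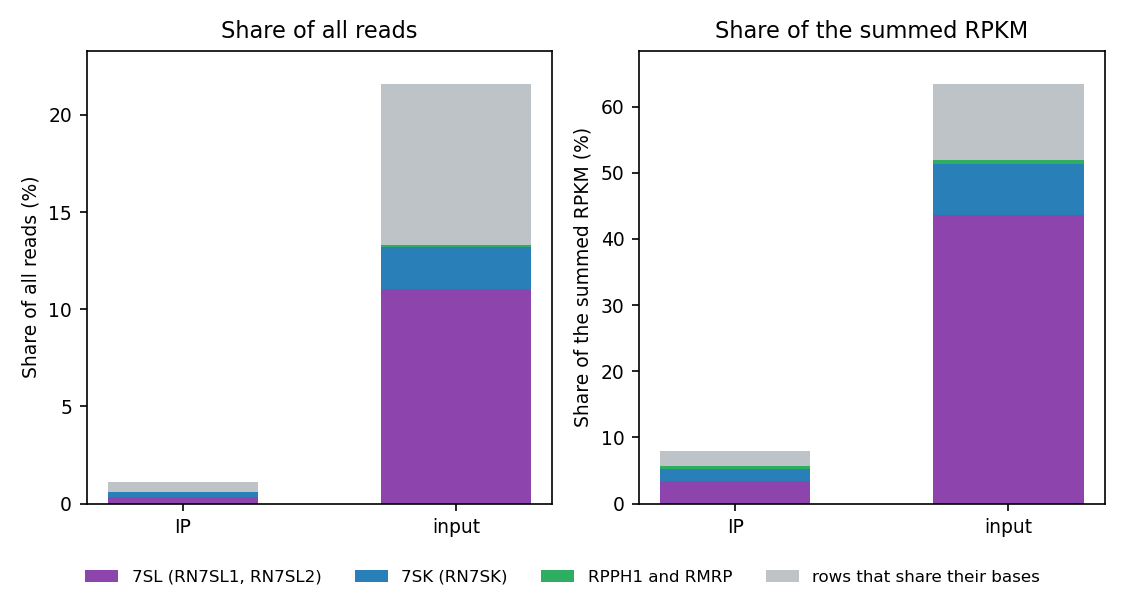
Share of all reads (left) and of the summed RPKM (right), in percent, taken by 7SL, 7SK, RPPH1 with RMRP, and the 3 rows that count the same reads again, in the IP and the input library; the Y RNAs are too few to draw. The stack reaches 1.10% of IP and 21.6% of input reads on the left, and 8.00% and 63.4% of the summed RPKM on the right.

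Most rows next to the 7 RNAs had ratios above 1, and none was as low as those of RN7SL1, RN7SL2, RN7SK, RPPH1 or RNY1, whereas those of RPS29 and AL627171.1 were below the 0.600 of RMRP. PARP2, which lies 175 bases from RPPH1 on the opposite strand and encodes a DNA repair enzyme, was at 1.31 times its input level (1.10 to 1.57). CCDC107, 272 bases from RMRP on the opposite strand, was at 1.81 times (1.06 to 3.23), and ARHGEF39, 857 bases from RMRP on its own strand, at 1.26 times (0.834 to 1.94). GSTA4, a glutathione transferase gene 317 bases from RN7SK, had 42 IP and 10 input reads, a ratio of 1.98 (0.978 to 4.43). The ribosomal protein gene RPS29, 102 bases from RN7SL1, was the one whose interval lay below 1, at 0.563 times (0.402 to 0.791). The others within 5000 bases were AL355075.1 at 1.44 times (0.808 to 2.72), AL627171.1 with 2 reads in each library (ratio 0.472, 0.0342 to 6.51), and GHET1, near both Y RNAs, with 1 IP and 0 input reads. The authors' peak list, which holds 7643 regions enriched in the IP, had 0 peaks within 2000 bases of any of the 7 RNAs. The share of all rows with a peak that near was not computed. Nothing is read from this count, since the RNAs were chosen on the same IP and input values.

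Most other short rows had ratios less extreme than those of the RNAs described here. Among the other rows of at most 350 bases with at least 100 reads in both libraries together, the median ratio was 0.985 over 89 rows, and 27.0% of them (24) were at least 2-fold lower in the IP without a pseudocount. Of the 6 RNAs described here with that many reads, 5 were at least 2-fold lower, with a median ratio of 0.0710; they were chosen on this ratio. The 24 lower rows included the 7SL rows RN7SL674P, RN7SL3, RN7SL5P and RN7SL4P, the spliceosomal RNAs RNU4-1 and RNU4-2, and RNU6ATAC. Rows of other kinds were among them too. These included the microRNA rows MIR3609 (ratio 0.0751) and MIR3917 (0.316), the pseudogene MTATP8P1 (0.123), SCARNA10 (0.241), SNORA73A (0.335) and SNORD118 (0.382). At least 2-fold higher were 10 of the 89, with RNVU1-28, a variant U1 RNA, at 2.58 times its input level (2.47 to 2.69).

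Other RNAs made by polymerase III were low in read number and mostly lower in the IP. U6 and U6atac, the spliceosomal RNAs of this polymerase, had 65 rows with 202 IP and 406 input reads, a ratio of 0.235 (0.197 to 0.279). RNU6ATAC had 88.8 RPKM in the IP and 388 RPKM in the input, a ratio of 0.229 (0.168 to 0.309), and its pseudogene RNU6ATAC25P had a ratio of 0.153 (0.0945 to 0.241). All 5 of these rows with at least 20 reads were at least 2-fold lower, against 27.0% of short rows with that many reads. They were RNU6ATAC and rows named as pseudogenes, and the U6 gene row RNU6-7 had only 6 IP and 10 input reads. The 3 vault RNA rows held 4 IP and 8 input reads, with VTRNA1-1 at 4 and 2 reads and VTRNA1-3 at 0 and 4. The 4 rows of 5S ribosomal RNA pseudogenes held 2 IP and 6 input reads, with RNA5SP21 at 2 and 1, and RNA5SP113 and RNA5SP352 at 0 and 2 each. Of 3 other RNAs without a long poly(A) tail, SCARNA2, which guides modification of spliceosomal RNA, had a ratio of 0.467 (0.356 to 0.614), the U3 RNA SNORD3A one of 0.610 (0.527 to 0.707) and the telomerase RNA TERC one of 0.791 (0.640 to 0.980). The 3 are not products of polymerase III and were nearer to RMRP than to 7SL or 7SK. They do not stand for all such RNAs. RNU4-1 and RNU4-2, made by polymerase II, had ratios of 0.107 and 0.0999, near the 0.102 of RN7SK, whereas U1 rows together were at 2.29.

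**Figure D3:**
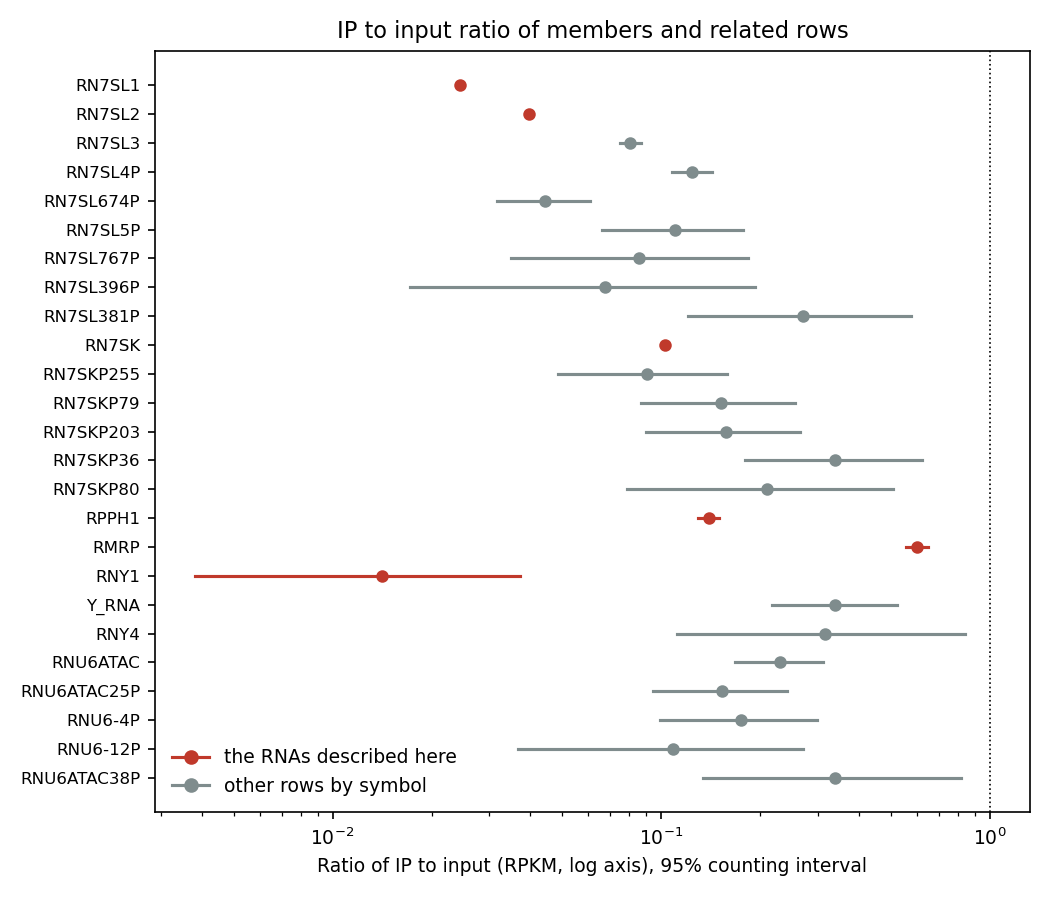
Ratio of IP to input level on a log axis, with 95% counting intervals, for the RNAs described here (red) and for other 7SL, 7SK, Y RNA and U6 rows (grey) with at least 20 reads in both libraries together; the dotted line marks a ratio of 1. Every point lies left of 1, from 0.0142 for RNY1 to 0.600 for RMRP; RNY3, with 6 reads, is not drawn.

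Among the 316 genes with at least 1000 input reads, the 10 lowest ratios held 4 of the 5 RNAs described here that reach that depth. RN7SL1 was lowest and RN7SL2 next, RN7SK stood at position 7 and RPPH1 at position 10, and RMRP at position 48. The others were AL627171.2 and AL162581.1, which count the same reads, RN7SL3, and 3 nuclear copies of mitochondrial genes: MTRNR2L8 at 0.0494 times its input level (0.0417 to 0.0581), MTRNR2L12 at 0.0582 times (0.0524 to 0.0646) and MTATP6P1 at 0.136 times (0.133 to 0.139). Leaving out the 7 RNAs and the rows that share their bases, the genes nearest in log2 ratio, over 1 IP and 1 input library, were MTATP6P1 to RPPH1 (-0.04 apart, gene minus RNA) and MTRNR2L8 to RN7SL2 (0.32 apart) and to RN7SL1 (1.02 apart). MTRNR2L12 came next for RN7SL2 (0.56) and for RN7SL1 (1.25). RN7SK lay between RN7SL3 (-0.35 apart) and MTATP6P1 (0.41 apart), and RN7SL3 was, with the same rows left out, the next nearest to RPPH1 (-0.79). RMRP lay beside the ribosomal protein genes RPL36AL (-0.0037 apart) and RPL37 (0.0085 apart), at 0.599 and 0.604 times their input level. With 2 libraries, likeness in this ratio says nothing more about these genes.

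**Figure D4:**
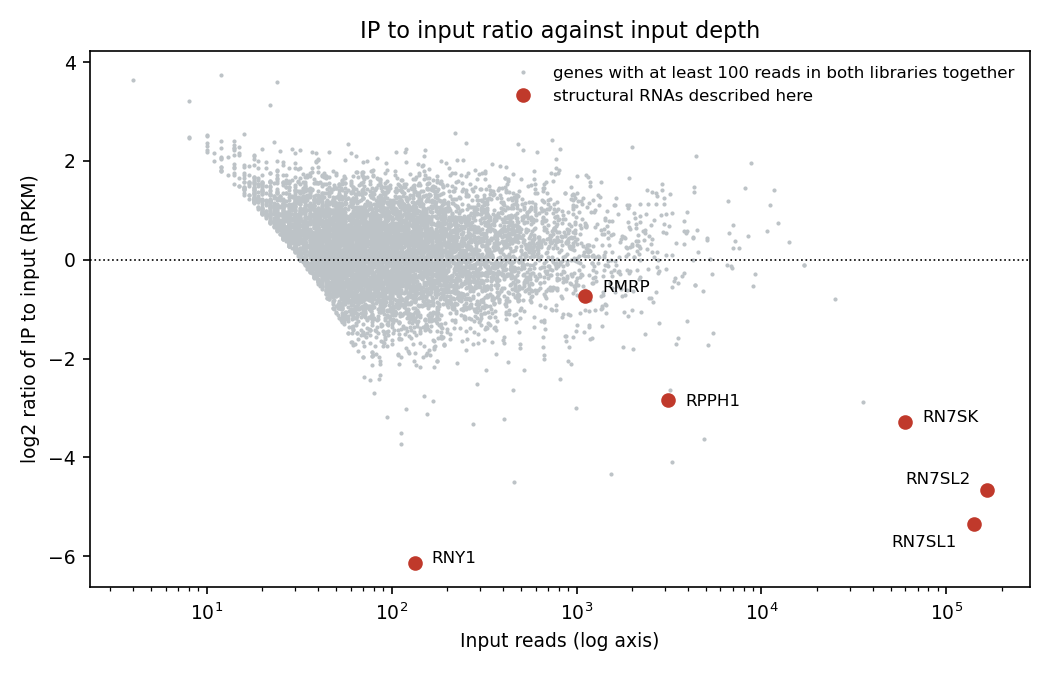
log2 ratio of IP to input level against input reads (log axis) for the genes with at least 100 reads in both libraries together (grey) and 6 of the 7 RNAs (red); the dotted line marks equal levels. RN7SL1, RN7SL2 and RN7SK lie at the deep end and far below 0, RNY1 lies lowest with 133 input reads, and RMRP lies within the cloud.

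The weight of these RNAs in the input moved the scale on which every other gene was read. With the 3 rows that count their reads again left out of the total, the 7 RNAs took 0.623% of IP reads and 14.5% of input reads. The 10 rows together came to 1.10% of IP and 21.6% of input reads, which counts the shared reads 2 times. Because RPKM divides by length and these rows are mostly short, their part of the summed RPKM was larger, at 8.00% in the IP and 63.4% in the input; the 7 RNAs alone made up 5.70% and 52.0%. After scaling each library to its reads outside these 10 rows, an alternative chosen after seeing the data, the median log2 ratio of the 14057 genes was -0.12, against 0.14 on the deposited scale. The count of genes at least 2-fold higher in the IP was then 940, against 1592 as deposited, and that of genes at least 2-fold lower was 1907, against 1159. Higher genes made up 33.0% of those counted on that scale and 57.9% on the deposited one, 29.4% when protein-coding reads set the scale, 44.6% when the median gene was set to 0 and 95.04% after scaling to the same RPKM sum.

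Of the 7 RNAs, RMRP was the one whose direction depended on this choice. Its log2 ratio was -0.74 as deposited, -1.07 after scaling to reads outside the 10 rows, -1.13 after scaling to protein-coding reads and 0.52 after scaling both libraries to the same RPKM sum, where the median of all genes was 1.24. RMRP thus stayed below the median gene under each of these scalings. The log2 ratios of RN7SL1, RN7SL2, RN7SK and RPPH1 were -5.36, -4.66, -3.29 and -2.84 as deposited, and -4.10, -3.40, -2.03 and -1.58 with the same RPKM sum, the highest values that any of the scalings gave.

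**Figure D5:**
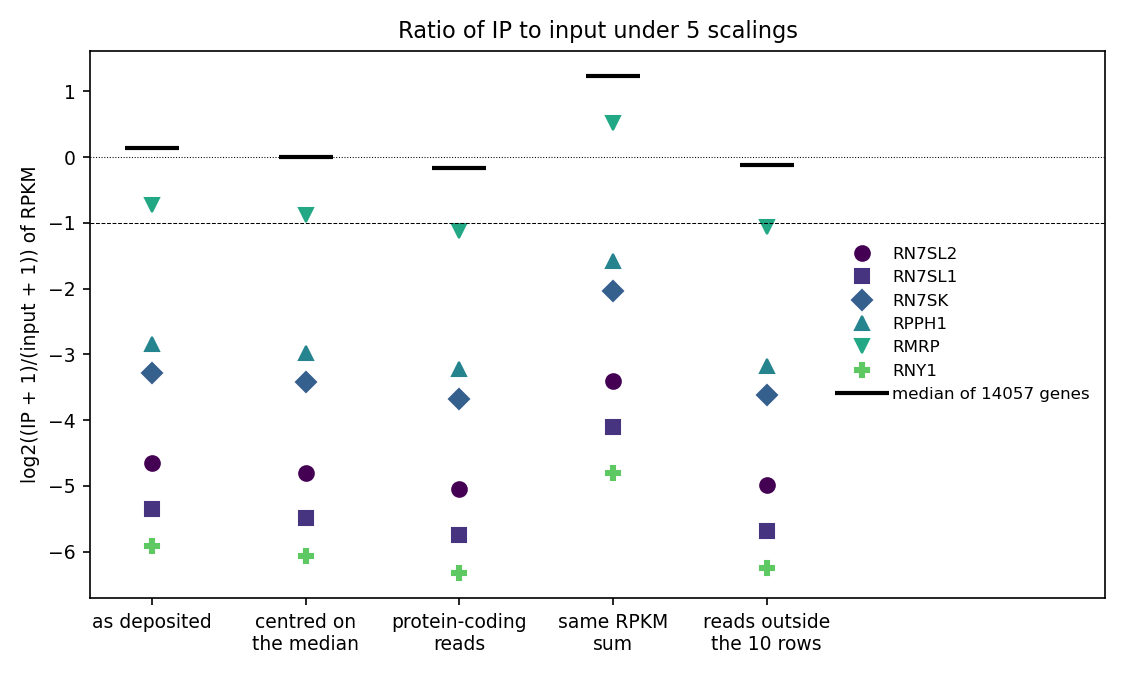
log2((IP + 1)/(input + 1)) of RPKM for 6 of the 7 RNAs and, as black bars, for the median of 14057 genes, under the deposited scaling and 4 others; the dotted line marks 0 and the dashed line a 2-fold lower level. RMRP crosses 0 with the same RPKM sum, at 0.52, and the other 5 stay below -1; RNY3 is left out because its value follows from the pseudocount.

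Among mRNAs with a mean of at least 1 RPKM, those of the proteins that bind these RNAs had ratios from 0.402 (SRP9) to 3.22 (HEXIM1), all above those of RN7SL1, RN7SL2, RN7SK, RPPH1 and RNY1. The ratios of SRP9, SRP19 and RO60 were below the 0.600 of RMRP, and no difference from the RNAs was tested. Medians below are of log2((IP + 1)/(input + 1)) over members with a mean of at least 1 RPKM, and the median of all genes was 0.14. On that scale 11.3% of all genes were at least 2-fold higher and 8.25% at least 2-fold lower. The 8 genes of the signal recognition particle and its receptor had a median of -0.11 (1.09 with the same RPKM sum), with 0 at least 2-fold higher and 1 lower. That one was SRP9, which binds the Alu part of 7SL, at 0.402 times its input level (0.339 to 0.476). SRP19, which helps the particle assemble, was at 0.4996 times (0.419 to 0.595), SRP14, the partner of SRP9, at 1.18 times (1.12 to 1.24) and the receptor subunit SRPRA at 1.64 times (1.39 to 1.95). The 7 genes of the 7SK particle and P-TEFb had a median of 0.58, with 1 at least 2-fold higher and 0 lower, against 11.3% and 8.25% of all genes. That median was 0.27 when protein-coding reads set the scale, 0.31 when reads outside the 10 rows did, 0.24 with a pseudocount of 10 and 1.75 with the same RPKM sum. HEXIM1, which inhibits P-TEFb when bound to 7SK, was at 3.22 times (2.75 to 3.80) and MEPCE, which caps 7SK, at 1.93 times (1.56 to 2.41), whereas HEXIM2 was at 1.12 times (0.610 to 2.15) and the cyclin CCNT1 at 0.950 times (0.773 to 1.17).

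Protein genes of RNase P and RNase MRP had a median of 0.12 over 9 of 11 members, with 0 past 2-fold in either direction; the sign turned after centring (-0.015), with scaling to protein-coding reads (-0.26) or to reads outside the 10 rows (-0.20), and without the filter (-0.07). They ran from RPP30 at 0.656 times (0.372 to 1.17) and RPP38 at 0.786 times (0.463 to 1.36) to RPP25 at 1.55 times (0.837 to 3.05) and RPP25L at 1.89 times (0.852 to 4.74), and the intervals of all 4 include 1. The 7 listed genes of Y RNA binding proteins had a median of 0.16 (-0.22 when protein-coding reads set the scale and -0.17 when reads outside the 10 rows did), with 0 past 2-fold. RO60, the Ro protein, was at 0.586 times (0.427 to 0.808) and SSB, the La protein, at 1.05 times (0.977 to 1.13), and YBX3 and PUF60 were highest at 1.47 times (1.28 to 1.69) and 1.60 times (1.37 to 1.88).

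The genes of RNA polymerase III itself were spread around the median of all genes. Its 18 subunit genes, some shared with other polymerases, had a median of 0.27 (-0.05 when protein-coding reads set the scale and -0.0068 when reads outside the 10 rows did), with 0 at least 2-fold higher and 1 lower. The shared small subunit POLR2K had a ratio of 0.354 (0.223 to 0.557) and POLR3K was at 0.553 times (0.436 to 0.703), while POLR2E was at 1.87 times (1.60 to 2.21) and POLR3GL at 1.97 times (1.52 to 2.59). The initiation factor list has 19 genes with MAF1, the repressor of the polymerase, and 18 of them reached a mean of 1 RPKM. These 18 had a median of 0.33, with 1 at least 2-fold higher and 0 lower, against 11.3% and 8.25% of all genes. That median was 0.014 when protein-coding reads set the scale, 0.06 when reads outside the 10 rows did, 0.12 with a pseudocount of 10 and 1.46 with the same RPKM sum. The 5S factor GTF3A was at 0.579 times (0.449 to 0.749) and SNAPC5 at 0.672 times (0.547 to 0.828), and SNAPC4 at 2.10 times (1.59 to 2.82) and GTF3C1, the largest subunit of TFIIIC, at 3.07 times (2.61 to 3.62). Without the pseudocount SNAPC4 and BRF1 were also past 2-fold. BRF1, a TFIIIB subunit with 164 IP and 28 input reads, was at 2.76 times (1.84 to 4.29). SNAPC2, which the filter left out, had 11 IP and 0 input reads. Nothing is read from these, since 2373 of all 14057 genes were at least 2-fold higher with a pseudocount of 0.1. The ratio of each protein gene named in these lists was above that of RN7SL1, RN7SL2, RN7SK, RPPH1 and RNY1.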

How the data were processed

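One IP and 1 input library of Huh-7 cells were used, grouped by title. Trimmomatic and STAR 2.5.3a are named in the submitters' processing notes. Gene counter, annotation, genome build, peak caller and any use in counting of the unique molecular identifiers that the design text names were not given in the sources used here. As deposited by the authors, the gene table holds RPKM values under a header that names no unit; values times length add up alike for both libraries, as RPKM does. Whole reads were recovered from them (100% of values within 0.01 of a read), with 0 columns of other samples. The deposited peak table gives a fold (ratio) and p-values per peak, per the file headers, and only peak positions were used. RefSeq (GRCh38.p14) gave gene classes for 19414 symbols, 6142 were unmatched, and 99.9% of 19405 spans overlapped its own.

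The main value was log2((IP + 1)/(input + 1)) of RPKM, which understates changes of low genes, at a mean of at least 1 RPKM. Single genes have the ratio of RPKM values with a 95% interval from Clopper-Pearson bounds on the 2 read counts. Shares have exact binomial intervals. No p-value was computed. Alternatives were other pseudocounts (0.1, 10), no filter or a mean of 5 RPKM, other scalings (the one to reads outside the 10 rows added after seeing the data) and 2 reads as 1 fragment.

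The RNAs and lists were chosen with earlier results of these data known. Named were all 7 RNAs, rows sharing their bases, the 2 highest and 2 lowest of each protein list, the 2 rows with the most reads per library of each row list, the 10 lowest ratios among genes with at least 1000 input reads and the 2 nearest to each RNA that share no bases with any of the 7. Other names, the neighbours and the limits for short rows were chosen after values were seen. Lists of other RMRP and RPPH1 rows and of further polymerase III RNAs had 0 rows. Read recovery and intervals were tested on simulated independent counts, the intervals at a mean of 1000 input reads. Reads counted in pairs, and counts as low as those of RNY1 and RNY3, were not simulated for the intervals. The software was matplotlib 3.10.9, scipy 1.17.1, pandas 2.3.3 and numpy 2.4.6 under Python 3.11.15.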

Additional observations from a re-analysis of the deposited data

How the results depend on the processing

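Depth limits the Y RNAs most: RNY1 rests on 4 IP reads, and the log2 ratio of RNY3 follows from the pseudocount, at -7.73 with 0.1, -4.47 with 1 and -1.64 with 10. Pseudocounts of 0.1 and 10 moved the log2 ratios of the other 6 RNAs by less than their counting intervals. For RN7SL1, RN7SL2, RN7SK, RPPH1 and RMRP these were -5.50, -4.80, -3.43, -2.98 and -0.88 after centring on the median, -5.75, -5.05, -3.68, -3.23 and -1.13 when protein-coding reads set the scale, -5.69, -4.99, -3.62, -3.17 and -1.07 with scaling to reads outside the 10 rows, and -4.10, -3.40, -2.03, -1.58 and 0.52 with the same RPKM sum; the scaling itself makes these shifts. The counts of genes at least 2-fold lower and higher in the IP, 1159 and 1592, became 205 and 234 with a pseudocount of 10, 2132 and 887 when protein-coding reads set the scale, 454 and 8693 with the same RPKM sum, 1907 and 940 with reads outside the 10 rows, and 545 and 816 at a mean of at least 5 RPKM, which tests fewer genes. The 7 RNAs' share was 14.5% of input reads when the 3 rows that count their reads again were left out of the total. With those rows added, the 10 rows came to 1.10% of IP and 21.6% of input reads, which counts the shared reads 2 times. As a quotient to protein-coding reads, which do not contain them, the 7 RNAs came to 0.688% in the IP and 19.4% in the input. List medians turned sign in 9 cases: the signal recognition particle list with the same RPKM sum (1.09), the RNase P and MRP list after centring (-0.015), with protein-coding reads (-0.26), with reads outside the 10 rows (-0.20) and without the filter (-0.069), the Y RNA protein list with protein-coding reads (-0.22) and reads outside the 10 rows (-0.17), and the polymerase III subunit list with the same 2 scalings (-0.054 and -0.0068). The median of all genes moved with the scaling as well. It was 0.14 as deposited, 0 after centring, -0.17 with protein-coding reads, -0.12 with reads outside the 10 rows and 1.24 with the same RPKM sum. Under each of these the signal recognition particle list stayed below that median and the subunit list above it. The RNase P and MRP list and the Y RNA protein list changed side. No replicate could be left out, since each group is 1 library.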

Other observations

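The spliceosomal RNAs made by RNA polymerase II, which like the RNAs above are short and lack a long poly(A) tail, differed widely among themselves. U1 rows, 52 in all, had 15378 IP and 3173 input reads, a ratio of 2.29 (2.20 to 2.38). RNVU1-28 held most of them, with 14456 RPKM in the IP and 5602 RPKM in the input, and RNU1-18P was at 1.27 times its input level (1.07 to 1.51). U2 rows had a ratio of 0.322 (0.306 to 0.339), led by RNU2-2P with 2000.2 RPKM in the IP and 6487 RPKM in the input, and RNU2-64P, with 62 IP and 10 input reads, was at 2.92 times (1.49 to 6.40).

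U4 rows had a ratio of 0.107 (0.0891 to 0.127). U4 pairs with U6 before the spliceosome is activated, and any part of this pairing in the values was not tested. RNU4-1 had 111 RPKM in the IP and 1029.9 RPKM in the input, a ratio of 0.107 (0.0847 to 0.135), and RNU4-2 had a ratio of 0.0999 (0.0739 to 0.133). U4atac, the counterpart of U4 in the minor spliceosome, had a ratio of 0.235 (0.186 to 0.296), near the 0.229 of RNU6ATAC. U5 rows were at 0.791 times their input level (0.684 to 0.916), with RNU5A-1 at 0.985 times (0.763 to 1.28), RNU5B-1 at 0.807 times and RNU5E-1 at 0.713 times. Of the other minor spliceosome RNAs, RNU11 was at 1.04 times (0.915 to 1.18) and RNU12 at 1.93 times (1.54 to 2.46). Copies of these genes are near-identical, so the split of reads between rows is uncertain. Each value rests on 1 IP and 1 input library, and no difference between these RNAs was tested.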
